A study of Mus musculus with 10 samples.

Results

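The Sfmbt2 intron miRNA cluster was described as the 71 miRNA genes with symbols starting Mir that the GENCODE vM21 annotation places wholly within Sfmbt2, on its strand, of 1174 Mir hairpins in all. The gene spans chr2:10370510-10595253 (GRCm38, plus strand), and every hairpin of the cluster lies in intron 10 of the gene's first-numbered GENCODE transcript, between chr2:10466663 and chr2:10518279, with 0 hairpins that overlap an exon. The hairpins belong to 4 families, with 29 of Mir669, 23 of Mir466, 14 of Mir467 and 5 of Mir297. A further 48 miRNA genes in the same gene carry other symbols and were not members. Sfmbt2 encodes a Polycomb-group protein and is imprinted in the mouse, where the paternal copy is expressed. Its large tandem array of intronic miRNAs is a rodent feature, is transcribed as part of the host gene, and is best known from trophoblast, placenta and embryonic stem cells. A hairpin gives a 5p and a 3p mature arm, and bases 2 to 8 of an arm, the seed, carry most of its pairing to target transcripts.

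The small RNA fraction was sequenced from cells of Day 6 embryoid bodies (EBs), which were grown from male mouse embryonic stem cells by way of epiblast-like cells. Primordial germ cell-like cells (mPGCLCs) came from the lines E14 (129/Ola, no reporter) and BG5 (C57BL/6J/DBA/129, Blimp1-GFP), and surrounding EB cells, called non-PGCLCs, came from E14, BG5 and SGET (B6CBA/129, Stella-GFP and Esg1-tdTomato). Per the study's methods, E14 mPGCLCs were sorted on Ssea1 and Cd61 and BG5 mPGCLCs on Ssea1 and Blimp1-GFP, while the labels name the SGET reporter gate for every sample. Each of the 5 groups had 2 libraries, with 7421061 to 14444567 reads in a library, and mPGCLCs of SGET were not analysed here. Strain, reporter and sort came together in a line and cannot be told apart. The labels name no other treatment, all groups were taken on the same day of culture, and nothing in the labels says that replicates came from separate cultures, so p-values measure the spread between these libraries only. In bulk samples, fewer cells that make an RNA and less of that RNA in each cell cannot be told apart.

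The cluster was read in every library. Over the 10 libraries, 637286 reads of 1206 distinct sequences matched its hairpins, and 78.4% of them matched 1 hairpin alone. These matches were sought among the annotated Mir hairpins only. The rest of the genome was not searched, and miRNA genes with other symbols were left out here. Arms that share most of their reads were merged, which left 45 arms for the cluster of 782 in all. Of the 71 hairpins, 69 had a compatible read and 28 had a read of their own. The Mir467a, Mir466b and Mir669a copies in the middle of the array are near-identical, and of the 38 hairpins between Mir467c and Mir467e, 35 had no read of their own, so levels of single genes there are uncertain. The 10 hairpins of the same families outside Sfmbt2 gave little, with 0.155 to 104 RPM (reads per 1000000 reads of a library) that matched those hairpins only, and 0.40% of cluster reads also matched a hairpin outside the gene.

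**Figure D1:**
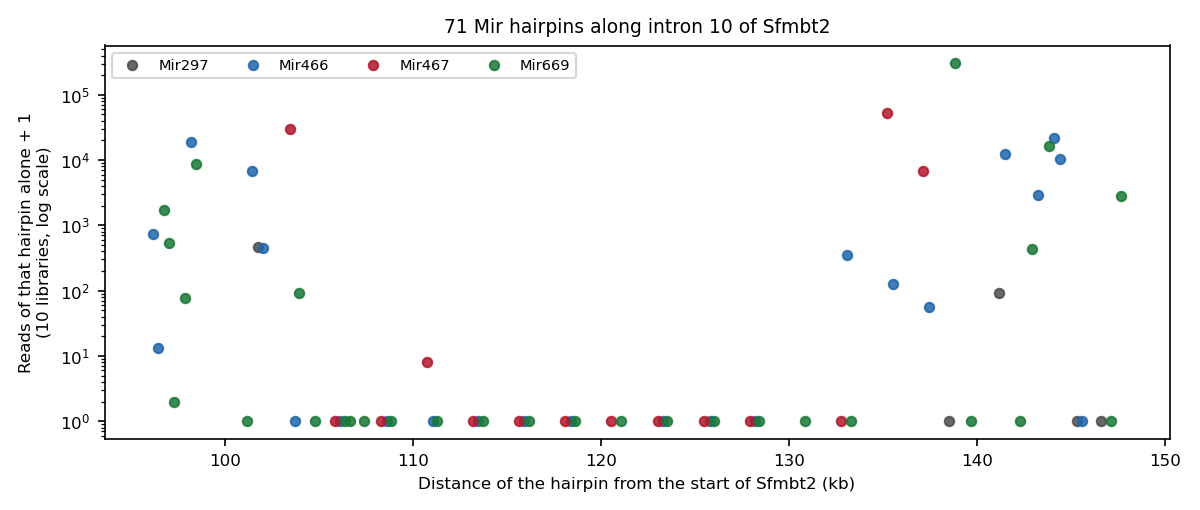
Reads of each of the 71 hairpins alone, summed over the 10 libraries plus 1 on a log axis, against the distance of the hairpin from the start of Sfmbt2 in kb, coloured by family. Mir669c has 302861 such reads, and the middle of the array has almost none because its copies share their reads.

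The sequences below are the leading reads of the arms that the comparisons turn on, as counted in the deposited files, in DNA letters, 5′ to 3′, with bases 2 to 8 in capitals. They show which seeds the cluster brings to these cells and which end of Mir669c-5p differed between groups.
Mir669c-5p, 24-nt form: aTAGTTGTgtgtggatgtgtgtat
Mir669c-5p, 22-nt form: aTAGTTGTgtgtggatgtgtgt
Mir669a group 5p: aGTTGTGTgtgcatgttcatgtct
Mir669l-5p: aGTTGTGTgtgcatgtatatgt
Mir669o-5p: tAGTTGTGtgtgcatgtttatgt
Mir467e-5p: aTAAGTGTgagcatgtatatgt
Mir467c-5p: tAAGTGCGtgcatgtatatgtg
Mir467a group 5p: tAAGTGCCtgcatgtatatgcg
Mir466 group 3p: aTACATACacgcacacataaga
Mir466d group 3p: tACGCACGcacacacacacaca
Mir466g-3p: aTACAGACacatgcacacacca
Mir294-3p, outside the cluster: aAAGTGCTtcccttttgtgtgt
Names with "group" stand for merged hairpins, which are 14 for Mir669a 5p, 12 for Mir669a 3p, 11 for Mir467a 5p, 13 for Mir466 3p and 2 for Mir466d 3p (Mir466d and Mir466h). Single-hairpin arms that lead the comparisons lie at chr2:10509296-10509404 (Mir669c), chr2:10505721-10505807 (Mir467e), chr2:10473931-10474027 (Mir467c), chr2:10514595-10514674 (Mir466g), chr2:10514300-10514395 (Mir669o) and chr2:10468971-10469068 (Mir669l). The leading read matched its hairpin exactly for 10 of the 12 most abundant arms. The exceptions were Mir466g-3p, with 2 mismatches near the 3′ end, and Mir466f-2-3p, with 1. The 4 Mir669 5p arms printed here share the core GTTGTG, which starts at base 2 in the Mir669a group and Mir669l, at base 3 in Mir669o and at base 4 in Mir669c. The leading reads of Mir467c and the Mir467a group hold AAGTGC at bases 2 to 7, the letters that Mir294-3p of the Mir290a to Mir295 cluster, the leading miRNA cluster of mouse pluripotent cells, holds there. Several arms were mixed at the 5′ end. The leading 5′ end was that of 58.3% of reads of Mir467e-5p, 66.1% of the Mir466 group 3p arm and 68.5% of Mir467c-5p, against 97.7% for Mir669c-5p. In the Mir466d group 3p arm, 70.8% of reads began with the first 18 bases of the leading read. Its second most frequent read, 17.9% of the arm, is another sequence, which matches 1 of the 2 merged hairpins and has the seed ATACATA. The seed printed for that group therefore does not stand for all its reads. The leading read of Mir467e-5p starts at the base before its second most frequent read. In Mir467c-5p the order is the opposite, and the second most frequent read, 29.4% of the arm, has the seed TAAGTGC and so does not hold AAGTGC at bases 2 to 7.

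Cluster reads were most abundant in the SGET non-PGCLCs. The SGET libraries held 12443 and 13270 RPM, a mean of 12857 ± 585 (SD, n = 2). BG5 mPGCLCs held 6186 and 3435 RPM, and E14 mPGCLCs held 4504 and 3602. The E14 non-PGCLCs held 3966 and 3412 RPM, and the BG5 non-PGCLCs 5316 and 3615. Both SGET libraries thus stood above the other 8, which overlapped from group to group, so that the order of the group means below SGET (4811 ± 1945 for BG5 mPGCLCs, 4465 ± 1203 for BG5 non-PGCLCs, 4053 ± 638 for E14 mPGCLCs and 3689 ± 392 for E14 non-PGCLCs) was within the spread between replicates.

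The mean of SGET non-PGCLCs was 3.48 times that of E14 non-PGCLCs and 2.88 times that of BG5 non-PGCLCs, differences of 1.80 and 1.55 between the mean log2 RPM. Both comparisons use the same SGET libraries. The lowest SGET library was 2.34 times the highest BG5 non-PGCLC library and 3.14 times the highest E14 one. Within lines, mPGCLCs and non-PGCLCs overlapped, with a difference of 0.13 in E14 and of 0.07 in BG5. Without Mir669c-5p the E14 groups still overlapped but the BG5 groups did not. BG5 mPGCLCs then held 3430 and 2130 RPM against 1628 and 1547 in BG5 non-PGCLCs. No p is given for the total because its members were chosen with results in view, and an exact test of 2 libraries against 2 cannot give a two-sided p below 0.333.

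The share of miRNA among all reads differed between groups, and the picture within lines depended on the denominator. Reads of all annotated miRNAs made up 14.97% to 34.5% of a library. Taken as a percent of miRNA reads, the cluster held 4.17% and 4.08% in SGET non-PGCLCs, again the highest. It held 1.31% and 1.14% in E14 mPGCLCs against 1.72% and 1.91% in E14 non-PGCLCs, lower in both mPGCLC libraries. In BG5 the direction was the opposite, with 2.85% and 2.29% in mPGCLCs against 1.64% and 1.68% in non-PGCLCs. The SGET mean was 2.27 times that of E14 non-PGCLCs and 2.49 times that of BG5 non-PGCLCs on this scale.

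**Figure D2:**
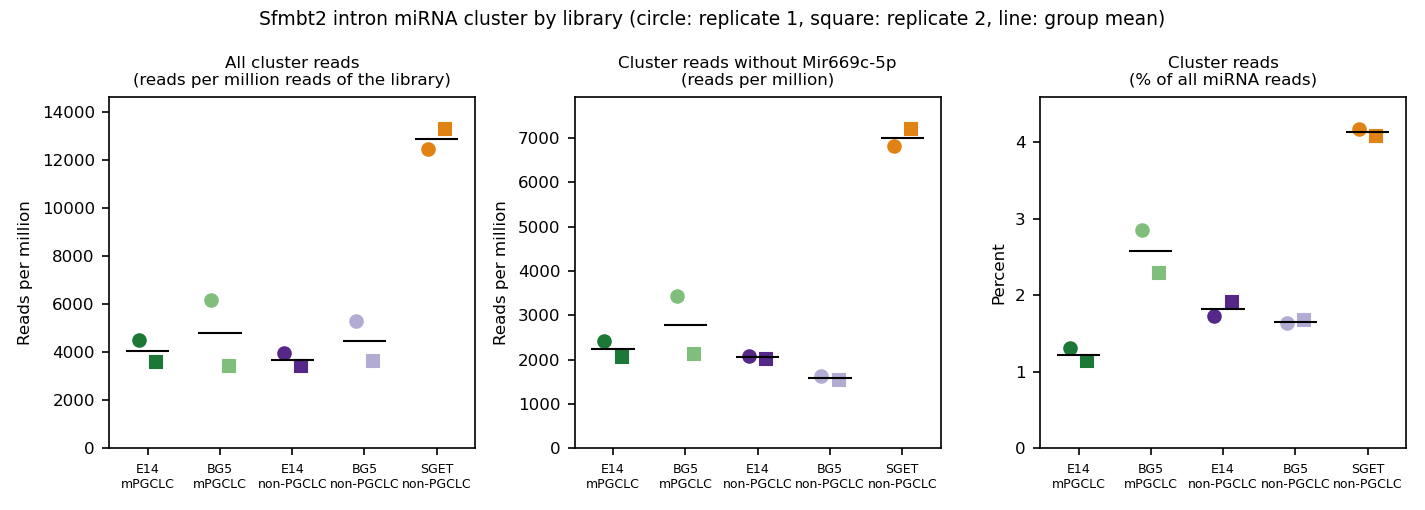
Cluster reads in each library as RPM, the same without Mir669c-5p, and as a percent of all miRNA reads, by group on the x axis; lines are group means. The SGET non-PGCLC libraries (12443 and 13270 RPM) lie above the other 8 in every panel, and the BG5 non-PGCLC libraries are lowest once Mir669c-5p is left out.

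A few arms made up most of the cluster. Mir669c-5p alone, with 302851 reads, was 38.0% to 69.4% of the cluster's reads in a library, and the 12 most abundant arms together were 93.4% of them over all libraries. The other arms were thinly read, and 18 to 35 of the 45 arms had a read in a given library. The 5p arms gave most of the Mir669 and Mir467 reads and the 3p arms most of the Mir466 reads. In SGET non-PGCLCs, for example, Mir669 5p arms held 7169 ± 226 RPM against 191 ± 44.8 for its 3p arms, while Mir466 3p arms held 2822 ± 243 RPM against 81.4 ± 64.4 for its 5p arms (SD, n = 2). Mir297 was the smallest family, at most 33.2 ± 5.94 RPM, in E14 mPGCLCs.

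The next arms by mean RPM were also high in SGET. That mean runs over all 10 libraries, so an arm high in SGET ranks higher by it, and by the mean share of cluster reads the Mir466 group 3p arm (7.33%) came before Mir467e-5p (6.98%). Mir467e-5p held 1264 and 1492 RPM in SGET non-PGCLCs, and 168 to 440 RPM in the 8 other libraries. The 3p arm of the Mir466 group held 925 and 942 RPM in SGET and 102 to 509 elsewhere. The 3p arm of the Mir466d group held 756 and 1030 RPM in SGET and 126 to 486 elsewhere. None of these arms overlapped between SGET and any other library. Mir669a group 5p, Mir467c-5p, Mir467a group 5p, Mir669l-5p and Mir669o-5p were also highest in the SGET libraries, as was Mir466f-2-3p. The Mir669a group 3p arm, at 134 and 199.4 RPM in SGET, overlapped with BG5 mPGCLC replicate 1 (167 RPM) and E14 non-PGCLC replicate 1 (154 RPM). Mir466g-3p, at 432 and 301 RPM in SGET, overlapped with BG5 mPGCLC replicate 1 (357 RPM).

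**Figure D3:**
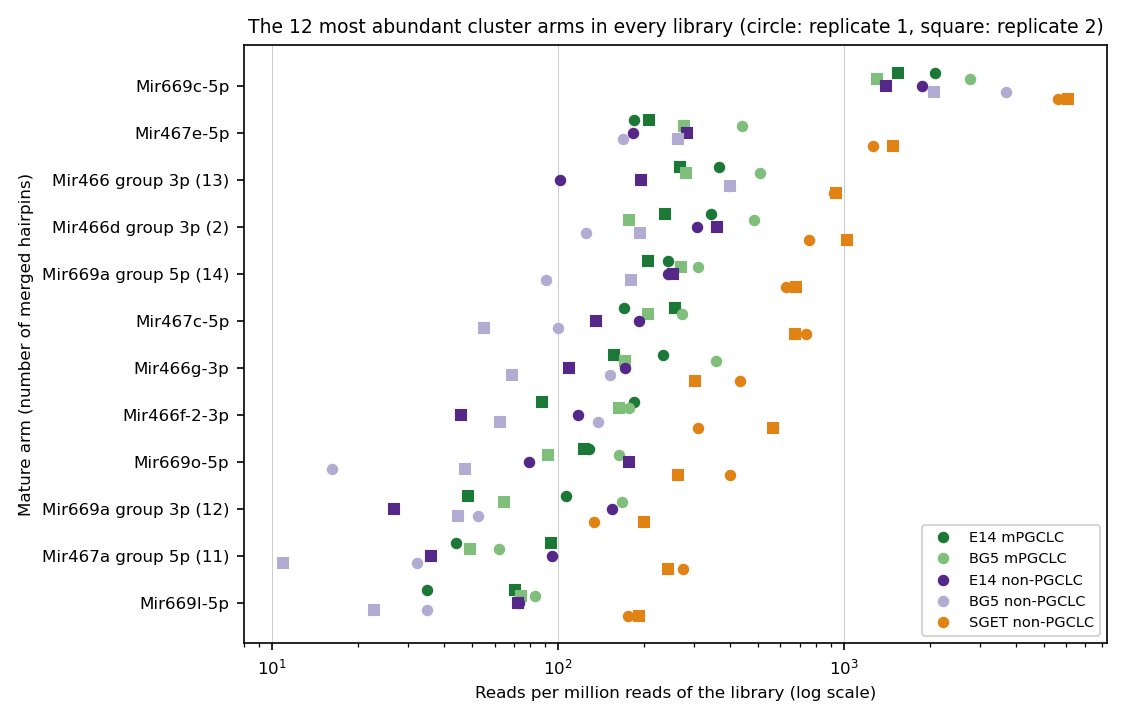
RPM (log axis) of the 12 most abundant cluster arms in each library, coloured by group; circles are replicate 1 and squares replicate 2, and the number in brackets is the number of merged hairpins. SGET non-PGCLCs hold the 2 highest values of most arms, for example 5618 and 6075 RPM for Mir669c-5p, and BG5 non-PGCLCs are lowest for several Mir669 and Mir467 arms.

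Arms were compared by edgeR's quasi-likelihood F test, fitted to all 568 arms that passed its filter on low counts, of which 34 were of the cluster. The other 11 cluster arms had too few reads. Values were scaled by TMM, which sets the bulk of arms level between libraries, and arms were called at a Benjamini-Hochberg adjusted p under 0.05 over all arms tested. Read copies from PCR were not removed in low-input libraries, and the replicates differed widely for thin arms (coefficient of variation 1.42 over all arms).

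Between SGET and E14 non-PGCLCs, 3 of the 34 arms tested were called higher and 0 lower, beside 1.58% of all arms called higher and 4.23% called in either direction. Mir669c-5p held 5618 and 6075 RPM in SGET against 1876 and 1401 in E14, and its log2 change was 1.34 (SE 0.26, adjusted p = 0.014 by edgeR). The Mir466 group 3p arm held 925 and 942 RPM against 102 and 195, a log2 change of 2.12 (SE 0.47, adjusted p = 0.028 by edgeR). Mir467e-5p held 1264 and 1492 RPM against 183 and 283, a log2 change of 2.03 (SE 0.47, adjusted p = 0.029 by edgeR). These arms come from 3 of the 4 families. Of the 34 cluster arms tested, 18 were higher in both SGET libraries than in both E14 libraries, beside 22.7% of all arms tested, and 1 was lower. Of the 12 most abundant arms, which were picked by means that include SGET, 11 were higher in this way. Ratios of the group means of those 12 were 1.84 to 6.29, with a median of 3.12. The median log2 change was 1.01 over the 34 cluster arms and 0 over all 568. The count fell to 1 arm without E14 non-PGCLC replicate 1, or with only the 4 libraries compared in the fit, and rose to 5 without BG5 non-PGCLC replicate 1. DESeq2 called 8 cluster arms here, of which 7 were higher, beside 15.1% of all arms that it gave an adjusted p. The call of Mir669c-5p held under all 19 alternatives run for it.

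Between SGET and BG5 non-PGCLCs, a comparison added after the data were seen, 12 of the 34 arms were called higher and 0 lower, beside 8.8% of all arms called higher and 17.4% in either direction. The SGET libraries are those of the comparison with E14. Mir467c-5p held 740 and 677 RPM in SGET against 100 and 55.3 in BG5, a log2 change of 3.74 (SE 0.51, adjusted p = 6.48e-05 by edgeR). Mir467e-5p held 168 and 264 RPM in BG5, a log2 change of 3.06 (SE 0.49, adjusted p = 0.00029 by edgeR). Both are 5p arms of the Mir467 family. Mir669c-5p had the smallest called change, with 3688 and 2068 RPM in BG5 and a log2 change of 1.56 (SE 0.27, adjusted p = 0.00048 by edgeR). The Mir466d group 3p arm rose by 2.87 (SE 0.53) and the Mir669a group 5p arm by 2.63 (SE 0.54) on the log2 scale, with adjusted p of 0.00094 and 0.0024 by edgeR. The other 7 called arms were Mir467a group 5p, Mir669o-5p, Mir466g-3p, Mir466f-2-3p, Mir466 group 3p, Mir669l-5p and Mir669h-5p. For 6 of them the log2 changes were 1.69 to 4.20. Mir669h-5p, the last hairpin of the array, held 54.4 and 70.3 RPM in SGET and 0 reads in both BG5 non-PGCLC libraries. Set against 3 reads per library, the SGET mean was 237-fold higher. That limit covers counting error alone and is no lower bound, since the E14 non-PGCLC replicates held 0 and 342 reads of this arm. Of the 34 cluster arms tested, 21 were higher in both SGET libraries than in both BG5 libraries, beside 17.1% of all arms tested, and 0 were lower. All 12 of the most abundant arms were among those higher. With the total reads alone as scale in place of TMM, 7 arms were called higher in this comparison and 3 in that with E14, where the median of all arms was -0.64 and 0.16 and that of the cluster arms 2.58 and 1.43. How many of all arms were called on that scale was not taken. The calls of Mir467c-5p, Mir467e-5p and the Mir466d group 3p arm held under all 20 alternatives, and that of Mir669c-5p was lost on total reads (adjusted p = 0.082 by edgeR). Mir466g-3p was not stable here, since its log2 change of 2.33 became -0.68 with exact hairpin matches only, which leave out its leading read.

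BG5 non-PGCLCs differed from E14 non-PGCLCs in the makeup of the cluster more than in its total. Without Mir669c-5p, the cluster held 1628 and 1547 RPM in BG5 non-PGCLCs and 2090 and 2012 in E14 non-PGCLCs, lower in both BG5 libraries. Mir669c-5p itself was higher in both BG5 libraries, at 3688 and 2068 RPM against 1876 and 1401, but not with TMM (log2 change -0.23, adjusted p = 0.63 by edgeR), and made up 69.4% and 57.2% of the cluster there against 38.0% to 47.3% in the 8 other libraries. Of the 34 arms tested, 5 were called lower and 0 higher, beside 7.22% of all arms called lower and 14.6% in either direction. Mir467c-5p held 100 and 55.3 RPM in BG5 against 192 and 136 in E14, a log2 change of -2.12 (SE 0.47, adjusted p = 0.0057 by edgeR). The Mir466d group 3p arm held 126 and 194 RPM against 306 and 361, a log2 change of -1.98 (SE 0.51, adjusted p = 0.015 by edgeR). Mir669o-5p held 16.2 and 47.2 RPM against 79.4 and 177, and the Mir669a group 5p arm 91.2 and 180 against 244 and 253, with log2 changes of -2.88 (SE 0.82) and -1.75 (SE 0.53) and adjusted p of 0.027 and 0.037 by edgeR. Mir669h-5p was called from 1 library, with 26.5 RPM in E14 replicate 2 and 0 reads in E14 replicate 1 and in both BG5 libraries, and without that library it had 0 reads in each group. The count of called arms fell to 3 without that library. DESeq2 called 9 cluster arms lower and 0 higher, beside 14.7% of all arms called lower and 29.9% in either direction, of those that it gave an adjusted p. The call of the Mir466d group 3p arm was lost with dinucleotide-repeat reads left out, where its log2 change was -1.22 (adjusted p = 0.364 by edgeR), and its leading read ends in a CA repeat. The call of Mir467c-5p was lost without BG5 non-PGCLC replicate 2 (adjusted p = 0.054 by edgeR). Those of Mir669o-5p and the Mir669a group 5p arm were lost without BG5 non-PGCLC replicate 1 (0.093 and 0.223) and without E14 non-PGCLC replicate 2 (0.135 and 0.096).

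The calls of lower arms in BG5 non-PGCLCs depend on the scale. Most arms outside the cluster were higher in RPM in BG5 non-PGCLCs than in E14 non-PGCLCs, so that with total reads alone as scale the median log2 change of all arms was 1.12, against 0.11 with TMM. The median of the 34 cluster arms was -0.85 on total reads and -1.79 with TMM, and 0 cluster arms passed the threshold on total reads. The share of all arms called on that scale was not taken. In RPM, 9 of the 34 cluster arms tested were lower in both BG5 libraries than in both E14 libraries, beside 12.3% of all arms tested. Those higher in both BG5 libraries were 2, Mir669c-5p and the Mir466 group 3p arm, beside 39.6% of all arms tested. Of the 12 most abundant arms, 6 were lower and the same 2 higher.

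The long form of Mir669c-5p dominated in BG5 non-PGCLCs. Reads of 24 nt were 75.5% and 93.2% of Mir669c-5p reads there, and 50.7% to 65.7% in the 8 other libraries. Reads of 22 nt were 13.1% and 3.29% there, and 24.9% to 35.6% in the others. The 24-nt form printed above held 2508 and 1827 RPM in BG5 non-PGCLCs against 849 and 789 in E14 non-PGCLCs, while the 22-nt form held 474 and 67.6 against 626 and 366. The forms differ by 2 bases at the 3′ end, so the seed is the same. SGET non-PGCLCs, with 3195 and 3715 RPM of the 24-nt form and 1553 and 1507 of the 22-nt form, had a mean of 59.0% ± 3.03 of the arm in the 24-nt form (SD, n = 2), against 59.4% ± 0.0606 in BG5 mPGCLCs and 78.2% ± 14.4 in BG5 non-PGCLCs. Among miRNA reads outside the cluster, 22-nt reads were 46.3% and 46.7% in BG5 non-PGCLCs and 38.1% to 40.9% in the others, and 24-nt reads were 12.1% and 11.8% against 7.25% to 9.90%. The share of 22-nt reads was therefore higher outside the cluster and lower in Mir669c-5p, while that of 24-nt reads was higher in both. In the cluster without Mir669c-5p, 22-nt reads were 34.0% and 47.7% in BG5 non-PGCLCs and 47.6% to 53.4% in the others. Reads of 24 nt there were 11.7% and 11.8% against 7.81% to 13.6%. In the 5p arm of the Mir669a group, which also has 22-nt and 24-nt forms, among reads with the leading 18 bases, BG5 non-PGCLC replicate 1 had 99.8% of its reads at 23 nt and replicate 2 had 61.1% at 24 nt, so that no direction can be read there. These length shares are descriptions of 2 libraries a group and were not tested.

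**Figure D4:**
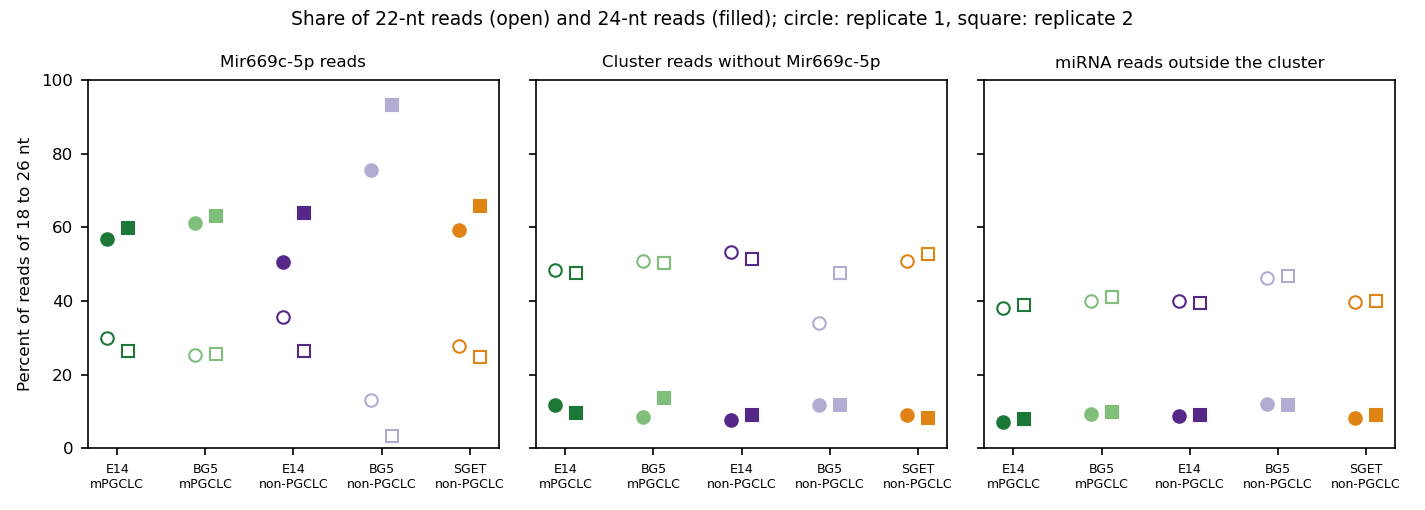
Percent of reads of 22 nt (open) and 24 nt (filled) among Mir669c-5p reads, the rest of the cluster, and miRNA reads outside the cluster, for each library by group. The BG5 non-PGCLC libraries have 75.5% and 93.2% of Mir669c-5p reads at 24 nt, above the 50.7% to 65.7% of the other libraries.

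The next comparisons asked whether the cluster differed between mPGCLCs and non-PGCLCs of a line. The sample numbers of mPGCLC and non-PGCLC libraries fall in separate ranges. Any difference in handling that follows those ranges cannot be told apart from cell type. Within E14, edgeR called 0 of the 34 arms, beside 2.82% of all arms, and 0 had an unadjusted p under 0.05, beside 12% of all arms. DESeq2 called 2, beside 10% of all arms, which were Mir669f-3p and Mir669f-5p, named here because DESeq2 called them. Mir669f-5p held 8.70 and 10.2 RPM in E14 mPGCLCs and 0 reads in E14 non-PGCLCs, and Mir669f-3p was read in 1 E14 library, at 2.05 RPM. The median log2 change of the 34 arms was -0.04, against 0 for all arms. Of the 34 cluster arms tested, 5 were higher in both E14 mPGCLC libraries, beside 24.8% of all arms tested, and 4 were lower, beside 14.4%. Of the 12 most abundant arms, 9 overlapped between the cell types in E14, 1 was higher and 2 were lower.

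Within BG5, 3 of the 34 arms were called higher in mPGCLCs and 0 lower, beside 7.92% of all arms called higher and 13.4% in either direction. Mir467c-5p held 271 and 206 RPM in mPGCLCs against 100 and 55.3 in non-PGCLCs, a log2 change of 2.35 (SE 0.48, adjusted p = 0.0026 by edgeR). Mir466g-3p held 357 and 172 RPM against 152 and 69.0, a log2 change of 1.96 (SE 0.55, adjusted p = 0.027 by edgeR). Mir669h-5p held 40.5 and 46.8 RPM against 0 reads in both non-PGCLC libraries (adjusted p = 0.035 by edgeR). Set against 3 reads per library, a limit for counting error alone and no lower bound, its mPGCLC mean was 166-fold higher. The BG5 non-PGCLC libraries are those of the comparisons between lines above. The call of Mir466g-3p was lost under 8 of 20 alternatives, among them exact hairpin matches only, which leave out its 3 most frequent reads. That of Mir467c-5p was lost only on total reads, where its adjusted p was 0.109 by edgeR. The call of Mir669h-5p was lost under 2 of 20 alternatives, with an adjusted p of 0.054 without BG5 non-PGCLC replicate 2 and 0.126 with the replicate number as a block (edgeR). DESeq2 called 11 cluster arms, all higher, beside 25.6% of all arms that it gave an adjusted p. Leaving out each library in turn gave 2 to 7 called arms by edgeR, the fewest without BG5 mPGCLC replicate 1 and the most without E14 non-PGCLC replicate 1 or SGET non-PGCLC replicate 2, which are outside the comparison. Of the 34 cluster arms tested, 13 were higher in both BG5 mPGCLC libraries, beside 17.4% of all arms tested, and 1 was lower. Of the 12 most abundant arms, 9 were higher in both BG5 mPGCLC libraries. The exceptions included Mir669c-5p, at 2756 and 1305 RPM in mPGCLCs against 3688 and 2068. The median log2 change of the 34 arms was 1.75 with TMM and 1.17 on total reads, where the median of all arms was -0.02 and -0.70.

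Over both lines together, Mir467c-5p was the 1 arm called, higher in mPGCLCs by 1.29 on the log2 scale (SE 0.33, adjusted p = 0.013 by edgeR), beside 7.75% of all arms called higher and 14.8% in either direction. That call was lost on total reads and in 5 of the 10 fits without a library, with an adjusted p of up to 0.166. Those fits called 1 to 4 arms, the most without BG5 non-PGCLC replicate 1. DESeq2 called 6, beside 29.5% of all arms that it gave an adjusted p. The E14 part of that change was not called, since E14 mPGCLCs held 170 and 257 RPM against 192 and 136 in E14 non-PGCLCs. In the test of the difference between the BG5 and E14 effects, edgeR called 0 of 34 arms, beside 5.81% of all arms, with 8 arms at an unadjusted p under 0.05, beside 14.8% of all arms, and DESeq2 called 4, beside 13.2%. The 4 were Mir669h-5p, Mir669l-5p, Mir467c-5p and the Mir669d group 5p arm, named after their values were seen. By edgeR the cell-type effects of the lines were not shown to differ, and 0 to 4 arms were called when each library was left out, the most without BG5 non-PGCLC replicate 2. Between BG5 and E14 mPGCLCs, edgeR called 0 of the 34 arms, beside 9.51% of all arms. There 0 had an unadjusted p under 0.05, beside 17.6% of all arms, and DESeq2 called 0, beside 19.7% of the arms it gave an adjusted p. The median log2 change of the cluster arms was -0.02 between those mPGCLC groups.

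**Figure D5:**
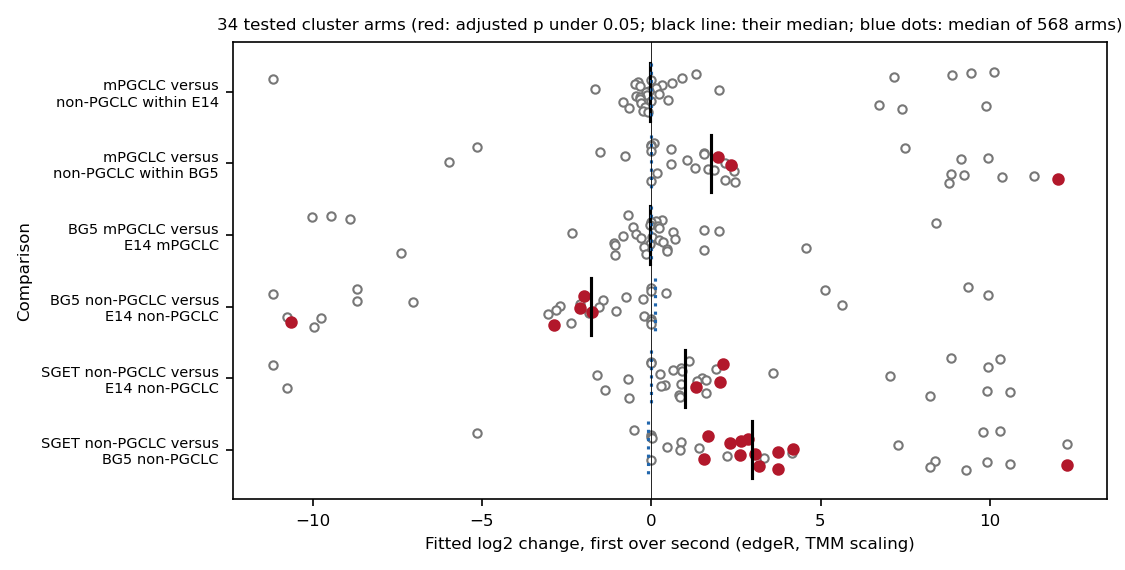
Fitted log2 change of each of the 34 tested cluster arms in 6 comparisons, with calls at an adjusted p under 0.05 in red, the median of the cluster arms as a black line and that of all 568 arms as a dotted blue line. The cluster median lies at 1.01 and 2.96 in the SGET comparisons, at -1.79 for BG5 against E14 non-PGCLCs, and near 0 within E14; values beyond 5 belong to arms with 0 or 1 reads in a group and are no measure of size.

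The reads that carry AAGTGC at bases 2 to 7 were 1.93% and 0.66% of cluster reads in BG5 non-PGCLCs, below the 8 other libraries. They were 6.76% and 6.45% in SGET non-PGCLCs, inside the 3.29% to 7.45% of the 6 libraries left. The Mir467 family as a whole held 2557 ± 20.6 RPM in SGET non-PGCLCs, 564 ± 12.7 in E14 non-PGCLCs and 368 ± 3.50 in BG5 non-PGCLCs (SD, n = 2), a family in which the 3 groups of non-PGCLCs did not overlap.

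Markers of other cell types moved with these groups. The Mir290a to Mir295 cluster, 8 hairpins that mark pluripotent and germ cells, summed to 43599 to 50792 RPM in SGET non-PGCLCs, 26634 to 36206 in E14 non-PGCLCs and 2412 to 3414 in BG5 non-PGCLCs. In mPGCLCs it summed to 55339 to 59664 RPM in E14 and 17344 to 23774 in BG5. The 4 hairpins of Mir199 and Mir214, which mark mesenchyme, summed to 13165 to 22031 RPM in BG5 non-PGCLCs, 1060 to 1242 in E14 non-PGCLCs, 425 to 427 in SGET non-PGCLCs and 19.0 to 144 in mPGCLCs. The 5 hairpins of the Mir200 family, which mark epithelium, summed to 2693 to 3031 RPM in SGET non-PGCLCs, 1114 to 1399 in the other non-PGCLCs and 1901 to 4337 in mPGCLCs. Blood markers (Mir142, Mir451a and Mir223, 3 hairpins) summed to 59.8 to 79.2 RPM in SGET non-PGCLCs, 1.94 to 5.52 in E14 non-PGCLCs, 7.19 to 82.5 in BG5 non-PGCLCs and 12.9 to 58.5 in mPGCLCs. Mir126a, a marker of endothelium, held 83.4 to 132 RPM in SGET, 12.1 to 48.2 in E14 and 103 to 110 in BG5 non-PGCLCs, and 58.2 to 109 in mPGCLCs. Muscle markers (Mir1a and Mir133a, 4 hairpins) summed to 54.0 to 232 RPM in SGET, 3.64 to 50.7 in E14 and 27.3 to 68.8 in BG5 non-PGCLCs, and 5.97 to 37.8 in mPGCLCs. The sums of the Mir290a to Mir295 cluster and of Mir199 and Mir214 did not overlap between the 3 groups of non-PGCLCs. The part of these markers in the cluster's levels was not tested. The Mir302 and Mir367 hairpins, 5 in all, summed to 4880 to 5088 RPM in BG5 mPGCLCs and 75.6 to 444 in the other groups.

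Outside the cluster, the 5 arms whose group means were most like the cluster total over the 5 groups, by Pearson's r of log2 (RPM + 1), were Mir1306-5p (0.988), Mir1a-3p (0.933), Mir423-3p (0.926), Mir664-3p (0.889) and Mir339-3p (0.884). These are 5 points, with SGET far above the rest, so the order of likeness rests mainly on the SGET level. No related hairpin outside Sfmbt2 was called in any comparison, where 1 of 10 arms was tested, Mir466i-3p.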

How the data were processed

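The deposited files hold raw counts: each lists the distinct read sequences of 1 library with the number of reads. Per the submitters' processing notes and the paper's methods, cutadapt 3.2 took off adapters and the kit's random bases, and STAR 2.5.3a placed reads on GRCm38. Those random bases did not serve to collapse PCR copies, which remain, and counting error understates the spread.

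Here, reads of 18 to 26 nt were assigned to hairpins of GENCODE vM21 in sense, with the first 18 bases exact and up to 2 later mismatches, and arms were merged where they shared at least 50% of the larger arm's reads. RPM is per 1000000 of all reads of a file. Arms were fitted over all 10 libraries with 5 group means by edgeR 4.0.16 in R 4.3.3 (filterByExpr, TMM, Benjamini-Hochberg threshold 0.05), and DESeq2 1.42.0 was an alternative. SE is |log2 change| over the root of F. Arms named are the 12 with the highest mean RPM, and up to 5 called arms with the smallest adjusted p per comparison. Members and lists were chosen with earlier results of these data known. This code was run on simulated counts first. Seeds were read from the deposited reads.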

Additional observations from a re-analysis of the deposited data

Results flagged for a closer look

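As a percent of miRNA reads, the cluster moved in opposite directions in the lines: the log2 difference of mPGCLCs minus non-PGCLCs was -0.57 in E14, with both mPGCLC libraries lower, and 0.63 in BG5, with both higher. In RPM the libraries of the cell types overlapped in both lines, though not in BG5 once Mir669c-5p was left out. The difference between the lines was not tested.

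The Mir669a group 5p arm showed the same opposite placement in RPM, with a ratio of mPGCLCs over non-PGCLCs of 0.905 in E14 (242 and 207 against 244 and 253 RPM) and 2.13 in BG5 (309 and 269 against 91.2 and 180). Mir669l-5p had a ratio of 0.724 in E14 (34.8 and 70.6 against 73.0 and 72.6 RPM) and 2.73 in BG5 (83.0 and 74.4 against 34.8 and 22.8). In edgeR's test of the difference between the lines, the adjusted p was 0.166 for the Mir669a group and 0.283 for Mir669l-5p.

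Reads antisense to the cluster's hairpins, which entered no comparison, numbered 134 in SGET non-PGCLC replicate 1, 1 in E14 mPGCLC replicate 1 and 0 in the other 8 libraries. By counting error alone, a count of 0 allows up to 3 reads. That SGET library held 179228 sense reads of the cluster.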

How the results depend on the processing

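For the log2 difference of the cluster total, miRNA reads as denominator gave -0.57 in place of 0.13 for E14 mPGCLCs minus non-PGCLCs, 0.63 in place of 0.07 for BG5, -0.13 in place of 0.25 for BG5 minus E14 non-PGCLCs and 1.19 in place of 1.80 for SGET minus E14 non-PGCLCs. Leaving out Mir669c-5p gave 0.77 for the BG5 cell types, -0.37 for BG5 minus E14 non-PGCLCs and 2.14 in place of 1.55 for SGET minus BG5 non-PGCLCs. Both SGET differences stayed positive under every alternative run, and exact matches, reads of 20 to 24 nt, repeats left out, reads shared with outside hairpins left out, and hairpins with other symbols (chosen after seeing the data) moved no total by more than the spread between replicates. Leaving out each library in turn gave -0.03 to 0.29 for E14, -0.35 to 0.50 for BG5, -0.03 to 0.53 for BG5 minus E14 non-PGCLCs, 1.70 to 1.91 for SGET minus E14 and 1.27 to 1.83 for SGET minus BG5 non-PGCLCs.

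Called arms depended more on the settings. For alternatives other than DESeq2 the share of all arms called was not taken, so their counts stand without it. DESeq2 called 6 arms for the pooled cell types (edgeR 1), 2 within E14 (0), 11 within BG5 (3), 4 for the difference of the lines (0), 9 lower in BG5 against E14 non-PGCLCs (5), and 8 in SGET against E14 non-PGCLCs (3), of which 7 were higher. Of all arms that it gave an adjusted p, DESeq2 called 29.5%, 10%, 25.6%, 13.2%, 29.9% (14.7% lower) and 15.1% in these comparisons, in the same order. Total-read scaling called 0 pooled, 1 within BG5, 0 for BG5 against E14 non-PGCLCs and 7 for SGET against BG5. DESeq2 size factors in edgeR called 3, exact matches 3 and the compared libraries alone 2 for BG5 against E14 non-PGCLCs, and the compared libraries alone called 2 pooled and 1 for SGET against E14. Without a low-count filter 2 arms were called pooled and 1 for the difference of the lines. Leaving out a library in turn gave 1 to 4 calls pooled, 0 to 0 within E14, 2 to 7 within BG5, 0 to 4 for the difference of the lines, 0 to 0 between mPGCLCs, 3 to 5 for BG5 against E14 non-PGCLCs, 1 to 5 for SGET against E14 and 9 to 14 for SGET against BG5. Of the 24 arm calls, 4 held under every alternative run for them, and 412 of 477 alternative fits kept the call, 63 lost it and 2 did not keep the sign: Mir669h-5p in BG5 against E14 non-PGCLCs, whose fitted log2 change was -11.70 to 0 with a library left out (0 without E14 non-PGCLC replicate 2) and is no measure of size, and Mir466g-3p at -0.68 with exact matches. The causes were not tested beyond the construction of each alternative.

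With the replicate number as a block, the pooled count was 2, with 4 calls within BG5, 4 for BG5 against E14 non-PGCLCs, 3 and 11 for the SGET comparisons and 0 elsewhere, and Mir669h-5p lost its call within BG5, in BG5 against E14 non-PGCLCs and in SGET against BG5 non-PGCLCs (adjusted p of 0.126, 0.262 and 0.084 by edgeR). The numbers share only a number: deviations of same-numbered libraries correlated at -0.055 in E14 and 0.040 in BG5 over 568 arms.

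With 2 libraries a group and a dispersion of 2.003, thin arms that appear in 1 library and not its replicate cannot be ranked, and a missing call does not show that levels were equal.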
